A study of Homo sapiens with 9 samples.

Results

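The genes described here are 54 subunits of the mitochondrial respiratory chain that are encoded in the nucleus. They were chosen by name, each as a listed gene symbol found once in all 9 expression tables, and they make up 54 of the 33216 genes in each table. By complex, 32 belonged to complex I (6 core and 26 accessory subunits), 4 to complex II, 7 to complex III and 11 to complex IV, with NDUFA4 counted in complex IV. The RNA came from CAL-27, an established line of human tongue squamous cell carcinoma grown as tumour cells in culture. The cells were collected 48 h after treatment, and the 3 groups were labelled Control, siLEF1 and siKDM4A, with n = 3 libraries each. In siLEF1 a small interfering RNA (siRNA) was directed against LEF1, a transcription factor of the Wnt pathway, and in siKDM4A against KDM4A, a histone lysine demethylase. The design asks which genes each knockdown changes and which of them answer to both. All 9 libraries shared the cell line, the RNA extraction and the library kit. Control was read here as cells given a control siRNA, although the sources used here do not say so for these libraries. The study lists 2 siRNAs for each target and does not state which of them was used for sequencing, and with 1 cell line the groups are a model of that line alone.

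The respiratory chain sits in the inner mitochondrial membrane and passes electrons from NADH and succinate to oxygen. Complex I oxidises NADH, complex II oxidises succinate, complex III passes electrons from ubiquinol to cytochrome c, and complex IV reduces oxygen. Complexes I, III and IV are mosaics of subunits made from nuclear genes and subunits made from mitochondrial DNA, whereas complex II is wholly nuclear. Carcinoma cells in culture draw on both glycolysis and respiration.

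Expression was given as FPKM, fragments per kilobase of exon model scaled to the library's total. The FPKM values of each library were whole multiples of the value of a single read, and this gave library totals of 15263085 to 17126523 reads. LEF1 was low in this line, at 1.19, 0.997 and 1.27 FPKM in Control, and fell to 0.270, 0.246 and 0.230 FPKM in siLEF1 (log2 fold change -1.84 ± 0.196 SE, adjusted p = 0.000572 by limma). KDM4A was at 16.5, 16.5 and 16.6 FPKM in Control and fell to 2.78, 2.76 and 2.78 FPKM in siKDM4A (-2.53 ± 0.040, adjusted p = 6.79e-07 by limma). It also fell in siLEF1, to 14.3, 14.01 and 13.8 FPKM (-0.23 ± 0.029, adjusted p = 0.00114 by limma). Of 4 listed muscle and 7 listed fibroblast markers, 3 and 6 were found in the data. All 10 squamous epithelial markers were at or above 1 FPKM in Control. By contrast, 0 of 4 endothelial, 0 of 3 muscle, 1 of 6 fibroblast (COL1A1) and 1 of 5 leukocyte markers (CD14) reached that level. No library's sum over any of these 4 other lists passed 6.29 FPKM. The summed level of the squamous markers was 1359 to 1409 FPKM in Control, 1471 to 1488 FPKM in siLEF1 and 543 to 560 FPKM in siKDM4A. Its part in the siKDM4A values below was not tested.

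Knockdown of LEF1 was accompanied by lower levels of 15 members, with some in each of complexes I to IV, and by higher levels of 5. NDUFS6, COX4I1 and NDUFV2 fell past a fold change of 1.5 and NDUFB6 rose past it. Knockdown of KDM4A was accompanied by smaller changes, more of them upward, and NDUFV2 was the single member past a fold change of 1.5, on few reads. Each comparison was tested with limma on log2(FPKM + 0.1) over all genes, with Benjamini-Hochberg adjustment, and all 54 members passed the filter of 0.1 FPKM. A gene was called at an adjusted p below 0.05, with or without a fold change above 1.5. In siLEF1 against Control, 5 members rose and 15 fell, where 15.7% of all tested genes were called higher and 16.9% lower. With the fold threshold 1 rose and 3 fell, where the same shares over all genes were 6.31% and 5.31%. In siKDM4A against Control, 15 members rose and 7 fell, where 14.7% of all tested genes were called higher and 18.3% lower. With the fold threshold 0 rose and 1 fell, where the shares over all genes were 4.23% and 7.8%. Abundant genes were called more often: of 4734 genes that averaged 10 FPKM or more over all libraries, 31.1% were called higher and 33.6% lower in siLEF1, and 37.2% and 28.2% in siKDM4A. The members called lower in siLEF1 were 27.8% of the 54 and those called higher 9.26%, and in siKDM4A 13.0% and 27.8%.

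The median log2 fold change over the 54 members was -0.07 in siLEF1, where it was -0.01 over all genes tested. It was 0.08 in siKDM4A, where it was -0.05 over all genes tested and 0.04 over those averaging 10 FPKM or more. By sign alone, 37 of 54 members were lower in siLEF1 and 36 of 54 were higher in siKDM4A. When libraries were scaled to a common median ratio, the siKDM4A median was 0.13, with 20 members called higher and 6 lower. Both comparisons used the same Control libraries, so their values are given side by side and are not independent. The labels and methods speak of 3 independent samples a group without saying what made them independent, so p-values measure the spread between these libraries, which may be technical. FPKM is a share of a library from a whole culture, so fewer cells of a type and less RNA per cell cannot be told apart.

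**Figure D1:**
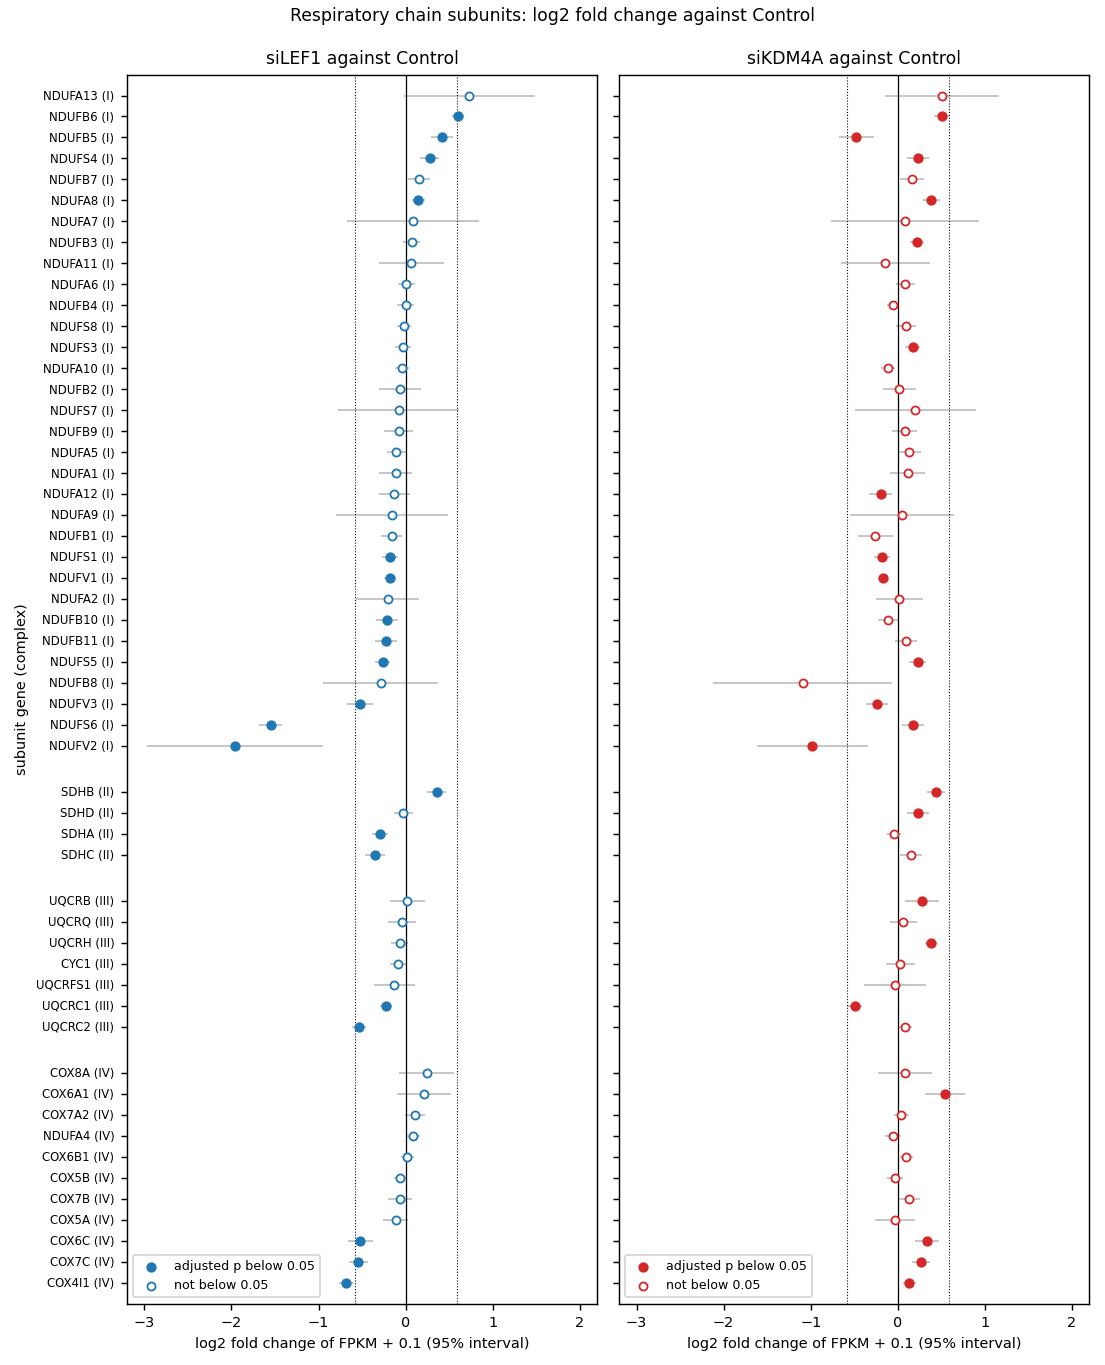
Log2 fold change of FPKM + 0.1 (x axis, with 95% intervals) of each of the 54 subunit genes (y axis, grouped by complex) in siLEF1 (left) and siKDM4A (right) against Control, n = 3 libraries a group. Filled points have an adjusted p below 0.05 and dotted lines mark a fold change of 1.5. NDUFS6 lies at -1.55 in siLEF1 and at 0.17 in siKDM4A, and the members with wide intervals, such as NDUFV2 and NDUFB8, rest on few reads.

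NDUFS6 stood furthest from Control among the well covered members. NDUFS6 is a zinc-binding accessory subunit at the junction between the NADH-oxidising and the ubiquinone-reducing parts of complex I, and variants in it cause a mitochondrial disease of infancy. Its level was 58.1, 60.9 and 52.9 FPKM in Control, 18.8, 19.7 and 19.9 FPKM in siLEF1, and 66.1, 63.1 and 64.5 FPKM in siKDM4A. The 3 siLEF1 libraries lay far below all others, and the siKDM4A libraries lay above the Control libraries without overlap. Behind these values were 1312, 1373 and 1172 reads in Control and 433, 455 and 493 reads in siLEF1. The mean fell by 66.0% in siLEF1 (log2 fold change -1.55 ± 0.055 SE, adjusted p = 7.74e-06 by limma). In siKDM4A the rise was 0.17 ± 0.053 (adjusted p = 0.0438 by limma). That call was not kept when Control replicate 1 or 3 or any one of the siKDM4A replicates was left out, where the value was 0.12 to 0.19 with adjusted p of 0.0645 to 0.123 by limma. The gene lies on the plus strand at chr5:1801400-1816605 (GRCh38), with no other annotated gene over its coding bases. Its promoter, from RefSeq on GRCh38.p14 (chr5:1801157-1801456, plus strand, 250 bases before to 50 after the transcription start), is shown because it carries a motif shared by several members. Capitals mark the palindrome CGCATGCG, the core of the binding site of NRF1, a regulator of many respiratory genes.
NDUFS6 promoter: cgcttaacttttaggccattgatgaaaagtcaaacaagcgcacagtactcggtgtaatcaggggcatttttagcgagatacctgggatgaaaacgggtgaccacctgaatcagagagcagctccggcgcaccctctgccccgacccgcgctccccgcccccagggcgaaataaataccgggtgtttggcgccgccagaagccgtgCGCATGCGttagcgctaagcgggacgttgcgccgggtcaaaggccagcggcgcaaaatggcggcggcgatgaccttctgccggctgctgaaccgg

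The siRNA sequences are shown because they can be set against the transcripts of these genes. An siRNA can also pair with other transcripts through its seed, bases 2 to 8 of the antisense strand. The antisense strands listed by the study follow, without their overhangs and with the seed in capitals.
si-LEF1-01: uUCUUACCauaauugucuc
si-LEF1-02: uUCACGUGcauuaggucac
si-KDM4A-01: uUGCUUAAaggcugacggc
si-KDM4A-02: uUGUACUGaguaaagaggc
The search was made after the values were seen, over 1 main coding transcript a gene from GENCODE 29, for 13087 tested genes including all 54 members. A site complementary to bases 1 to 9 of si-LEF1-02 was present in 2 members, NDUFS6 and SDHA, and in 96 of the 13087 genes (0.734%). In NDUFS6 the site began at base 454 of its transcript, in the 3′ UTR, a part in which 22 genes (0.168%) held one. In SDHA (chr5:218241-256700, plus strand) it began at base 1385, in the coding part. Capitals mark the bases that pair with the siRNA.
NDUFS6 site: tccgcggggaagctgaGCACGTGAAgct
SDHA site: aggggcaggtcctgagGCACGTGAAtgg
Both genes fell in siLEF1, SDHA by 0.29 on the log2 scale. The seed of si-LEF1-01 had a match of 7 or more bases in 3 members, NDUFS1, NDUFA9 and UQCRFS1, where 9.31% of all searched genes held one. Of these NDUFS1 fell in siLEF1 and the other two were not called. The seed of si-KDM4A-01 had a match of 7 or more bases in 9 members and that of si-KDM4A-02 in 5, where 18.4% and 19.9% of all searched genes held one. The longest of these were 9 bases, to si-KDM4A-02 in NDUFB4, at -0.06 ± 0.027 in siKDM4A (adjusted p = 0.174, limma), and to si-KDM4A-01 in NDUFA10, at -0.11 ± 0.034 (adjusted p = 0.0502, limma). NDUFB4 and NDUFA10 are accessory subunits of complex I. NDUFB5 held 2 matches to the si-KDM4A-01 seed, NDUFV3 held 3 to the si-KDM4A-02 seed, and SDHB held 1 of 8 bases to the latter. NDUFB5 and NDUFV3 fell and SDHB rose in siKDM4A, with the values given below. Matches of 8 bases to si-KDM4A-01 were also in the 3′ UTR of NDUFS6, NDUFS1 and NDUFA4. In siKDM4A NDUFS6 rose, NDUFS1 fell and NDUFA4 was not called. A match is a stretch of letters, and the part of any such site in these levels was not tested.

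The NADH-oxidising arm of complex I begins where electrons enter. NDUFV1 is the flavoprotein that binds NADH, NDUFV2 and NDUFS1 carry iron-sulphur clusters, and NDUFV3 and NDUFS4 are accessory subunits of the same arm. NDUFV2 fell under the rule for named members, whereas the others here, like NDUFS3, NDUFS8, NDUFB5, NDUFA8, NDUFB10, NDUFB11, NDUFB3, NDUFA12, SDHD, COX7C, COX6C and the catalytic subunits of complex III below, were picked after their values were seen. NDUFV1 was at 50.4, 50.3 and 49.4 FPKM in Control, 44.2, 45.5 and 42.7 FPKM in siLEF1, and 44.2, 44.4 and 44.4 FPKM in siKDM4A. All 6 knockdown libraries lay below all 3 Control libraries, and the changes were small, -0.18 ± 0.030 in siLEF1 (adjusted p = 0.00377) and -0.17 ± 0.022 in siKDM4A (adjusted p = 0.00128, limma). NDUFS1 was lower in the same manner, at 13.2, 12.7 and 13.4 FPKM in Control, 11.9, 11.2 and 11.5 FPKM in siLEF1 and 11.4, 11.4 and 11.9 FPKM in siKDM4A. Its log2 fold change was -0.18 ± 0.039 in each comparison (adjusted p = 0.0130 and 0.0120, limma), and neither call was kept without the trend in eBayes (adjusted p = 0.0564 and 0.0530). NDUFV3 was at 6.33, 6.26 and 6.20 FPKM in Control, 4.10, 4.21 and 4.66 FPKM in siLEF1 and 5.55, 5.05 and 5.32 FPKM in siKDM4A. It fell further in siLEF1 (-0.53 ± 0.062) than in siKDM4A (-0.24 ± 0.053), with a difference of 0.29 between them (adjusted p = 0.0168, limma). That difference was 0.25 to 0.29 with adjusted p of 0.0520 to 0.0564 (limma) without siLEF1 replicate 1 or 2 or siKDM4A replicate 1 or 3.

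NDUFS4 went the other way in both knockdowns. It was at 22.1, 19.98 and 22.1 FPKM in Control, 25.6, 25.7 and 26.4 FPKM in siLEF1 and 24.2, 24.7 and 26.3 FPKM in siKDM4A, so that all knockdown libraries lay above Control. On the log2 scale it rose by 0.28 ± 0.045 in siLEF1 (adjusted p = 0.00355) and 0.23 ± 0.052 in siKDM4A (adjusted p = 0.0144, limma), the latter at 0.20 with an adjusted p of 0.05002 without siKDM4A replicate 3. NDUFV2 was at 1.04, 0.736 and 0.773 FPKM in Control, 0.349, 0.0695 and 0.0866 FPKM in siLEF1 and 0.405, 0.497 and 0.258 FPKM in siKDM4A. These values stood on 44, 31 and 32 reads in Control, 15, 3 and 4 in siLEF1 and 18, 22 and 12 in siKDM4A. Against Control NDUFV2 changed by -1.96 ± 0.42 on the log2 scale in siLEF1 (adjusted p = 0.0125) and -0.98 ± 0.27 in siKDM4A (adjusted p = 0.0289, limma). Without Control replicate 1 the siLEF1 value was -1.82 with an adjusted p of 0.0507. The siKDM4A call was lost without any one of Control replicates 1 to 3 or siKDM4A replicates 1 or 3, with log2 fold changes of -1.07 to -0.78 and adjusted p of 0.0544 to 0.0995. As the gene model of NDUFV2 is shared with another one, its level is uncertain.

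The ubiquinone-reducing part of complex I showed little change in its core. NDUFS3, a core subunit at that junction, was at 13.0, 13.1 and 13.8 FPKM in Control, 13.2, 12.8 and 13.1 FPKM in siLEF1 and 14.8, 15.1 and 14.9 FPKM in siKDM4A. The siKDM4A libraries lay above all others, and NDUFS3 rose by 0.17 ± 0.037 there (adjusted p = 0.0118, limma, or 0.0577 without the trend). NDUFS8, a core iron-sulphur subunit, gave log2 fold changes of -0.02 and 0.10, neither past the threshold. Of the 6 core members 0 rose and 3 fell in siLEF1, and 1 rose and 3 fell in siKDM4A. Of all tested genes 15.7% rose and 16.9% fell in siLEF1, and 14.7% and 18.3% in siKDM4A. Of those averaging 10 FPKM or more, 31.1% rose and 33.6% fell in siLEF1, and 37.2% and 28.2% in siKDM4A.

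In the membrane arm, NDUFB6 and NDUFB5 are single-pass accessory subunits that lie close to the proton-pumping core. NDUFB6 was at 20.5, 19.4 and 19.6 FPKM in Control, 29.9, 29.99 and 30.2 FPKM in siLEF1 and 27.3, 28.4 and 28.9 FPKM in siKDM4A. All knockdown libraries lay well above Control, and the log2 fold change was 0.60 ± 0.030 in siLEF1 (adjusted p = 2.3e-05) and 0.51 ± 0.036 in siKDM4A (adjusted p = 0.000107, limma). NDUFB5 moved in opposite directions. It was at 7.54, 7.08 and 6.86 FPKM in Control, 10.1, 9.29 and 9.47 FPKM in siLEF1 and 5.66, 4.57 and 5.18 FPKM in siKDM4A. The groups did not overlap, with changes of 0.42 ± 0.053 in siLEF1 (adjusted p = 0.00125) and -0.48 ± 0.085 in siKDM4A (adjusted p = 0.00551, limma), and siKDM4A lay 0.90 below siLEF1 on the log2 scale (adjusted p = 0.000229, limma).

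NDUFS5 and NDUFA8 face the intermembrane space and are held by disulphide bonds. NDUFS5 was the most abundant of the 54 genes, at 189.7, 194 and 181 FPKM in Control, 162, 151 and 159 FPKM in siLEF1 and 211, 219 and 230.4 FPKM in siKDM4A. The 3 groups were fully separate, with siLEF1 lowest and siKDM4A highest (log2 fold change -0.26 ± 0.036 and 0.23 ± 0.040, adjusted p = 0.00178 and 0.00519, limma). NDUFA8 was at 67.3, 63.3 and 63.4 FPKM in Control, 72.4, 71.8 and 70.7 FPKM in siLEF1 and 88.7, 82.5 and 82.2 FPKM in siKDM4A. It rose in both, by 0.15 ± 0.030 in siLEF1 and by 0.38 ± 0.041 in siKDM4A (adjusted p = 0.00957, or 0.0853 without the trend, and 0.000545, limma). NDUFB10 and NDUFB11, accessory subunits of the membrane arm, fell in siLEF1 by 0.21 and 0.23 on the log2 scale. NDUFB10 lost that call without Control replicate 3 or siLEF1 replicate 2 or 3 (-0.22 to -0.20, adjusted p of 0.0527 to 0.0695, limma). NDUFB11 lost it without Control replicate 1 or 2 or siLEF1 replicate 1 (-0.21 to -0.19, adjusted p of 0.0521 to 0.0549, limma). Over complex I as a whole, 4 of 32 members rose (12.5%) and 8 fell (25%) in siLEF1 (median -0.08). In siKDM4A 7 rose (21.9%) and 6 fell (18.8%), with a median of 0.08. Over all tested genes 15.7% rose and 16.9% fell in siLEF1, and 14.7% and 18.3% in siKDM4A. Over genes averaging 10 FPKM or more these shares were 31.1% and 33.6%, and 37.2% and 28.2%. The 2 other complex I members called in siKDM4A were NDUFB3, which rose by 0.22, and NDUFA12, which fell by 0.20. NDUFA12 lost its call without any one of the Control replicates or siKDM4A replicate 1 or 2, with values of -0.22 to -0.15 and adjusted p of 0.0603 to 0.105 (limma).

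Complex II has 4 subunits, SDHA with the flavin that oxidises succinate, SDHB with the iron-sulphur clusters, and the membrane anchors SDHC and SDHD. SDHB was at 32.0, 35.3 and 34.9 FPKM in Control, 44.9, 42.6 and 43.1 FPKM in siLEF1 and 47.4, 45.3 and 46.3 FPKM in siKDM4A. All knockdown libraries lay above Control, by 0.35 ± 0.044 in siLEF1 (adjusted p = 0.0011) and 0.44 ± 0.043 in siKDM4A (adjusted p = 0.000385, limma). SDHA and SDHC, by contrast, fell in siLEF1. SDHA was at 21.4, 21.4 and 22.5 FPKM in Control, 17.0, 18.2 and 18.2 FPKM in siLEF1 and 20.9, 21.2 and 21.2 FPKM in siKDM4A. The siLEF1 libraries lay apart below the others (-0.29 ± 0.039, adjusted p = 0.00152), whereas siKDM4A differed from Control by -0.04 (95% interval -0.12 to 0.03, adjusted p = 0.350, limma), a sign that turned to 0.01 when libraries were scaled. SDHC was at 6.86, 7.25 and 7.11 FPKM in Control, 5.62, 5.60 and 5.32 FPKM in siLEF1 and 7.44, 8.06 and 8.09 FPKM in siKDM4A. It fell in siLEF1 (-0.35 ± 0.048, adjusted p = 0.0016), and the higher siKDM4A values did not pass the test (0.15 ± 0.052, adjusted p = 0.0685, limma). They did under 5 alternatives, at 0.15 to 0.20 with adjusted p of 0.00952 to 0.0436 (limma), among them the fit without siKDM4A replicate 1 (0.19, adjusted p = 0.0354). SDHD rose in siKDM4A by 0.23 ± 0.054 (adjusted p = 0.0165, limma), a call lost without Control replicate 1 or 3 (0.22 and 0.21, adjusted p = 0.0570 and 0.0590, limma). Another gene model covers 47.7% of the coding bases of SDHD, so its level is uncertain. In siLEF1 1 of the 4 subunits rose and 2 fell, and in siKDM4A 2 rose and 0 fell. Of all tested genes 15.7% rose and 16.9% fell in siLEF1, and 14.7% and 18.3% in siKDM4A. Of those averaging 10 FPKM or more, 31.1% rose and 33.6% fell in siLEF1, and 37.2% and 28.2% in siKDM4A. With 4 genes a share says little.

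In complex III, UQCRC1 and UQCRC2 form the large matrix-facing core pair. UQCRC2 was at 28.6, 29.6 and 27.9 FPKM in Control, 19.3, 19.8 and 20.4 FPKM in siLEF1 and 29.7, 30.4 and 31.0 FPKM in siKDM4A. It fell in siLEF1 by 31.0% of the mean (-0.53 ± 0.034, adjusted p = 6.59e-05), and siKDM4A differed from Control by 0.08 (95% interval 0.00 to 0.16, adjusted p = 0.110, limma), or 0.14 with libraries scaled (adjusted p = 0.0231, limma). UQCRC1 was at 51.5, 54.2 and 53.7 FPKM in Control, 46.0, 44.7 and 45.9 FPKM in siLEF1 and 39.2, 37.1 and 36.6 FPKM in siKDM4A. The groups were separate in that order, and UQCRC1 fell more in siKDM4A (-0.50 ± 0.036, adjusted p = 0.000119) than in siLEF1 (-0.22 ± 0.028, adjusted p = 0.00122), with a difference of -0.27 (adjusted p = 0.000757, limma). So the 2 partners of the core pair were each lower in siLEF1, while in siKDM4A UQCRC1 fell and UQCRC2 did not.

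UQCRH, the hinge subunit that helps cytochrome c1 meet cytochrome c, was at 69.9, 70.7 and 68.6 FPKM in Control, 64.9, 64.1 and 70.5 FPKM in siLEF1 and 88.3, 92.7 and 91.4 FPKM in siKDM4A. It rose in siKDM4A (0.38 ± 0.027, adjusted p = 0.000104). In siLEF1 it was at -0.07 ± 0.040 (adjusted p = 0.246), and its libraries overlapped those of Control. Without siLEF1 replicate 3 that value was -0.11 with an adjusted p of 0.0292 (limma). UQCRHL is a near-identical copy of this gene, so reads may be split between the pair. UQCRB, which lines the quinone site, was at 4.44, 4.83 and 4.01 FPKM in Control and 5.15, 5.64 and 5.31 FPKM in siKDM4A. Its rise of 0.28 ± 0.081 (adjusted p = 0.0398) lost its call without Control replicate 1 or 3 or any one siKDM4A replicate, at 0.21 to 0.30 with adjusted p of 0.0629 to 0.121 (limma). The catalytic subunits CYC1, which is cytochrome c1, and UQCRFS1, the Rieske iron-sulphur protein, were not called in either comparison. In siKDM4A replicate 1 they stood at 78.0 and 29.2 FPKM, against 63.6 and 69.2 and against 20.3 and 20.6 FPKM in the other siKDM4A libraries. In siLEF1 0 of 7 members rose and 2 fell (28.6%), and in siKDM4A 2 rose (28.6%) and 1 fell (14.3%). Over all tested genes 15.7% rose and 16.9% fell in siLEF1, and 14.7% and 18.3% in siKDM4A. Over genes averaging 10 FPKM or more these shares were 31.1% and 33.6%, and 37.2% and 28.2%.

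In complex IV the nuclear subunits surround a catalytic core made from mitochondrial DNA. COX4I1, the largest nuclear subunit and a site of regulation by adenine nucleotides, was at 49.4, 51.5 and 47.9 FPKM in Control, 30.3, 31.9 and 30.5 FPKM in siLEF1 and 53.99, 53.98 and 55.1 FPKM in siKDM4A. The siLEF1 libraries lay far below the others, a fall of 37.6% of the mean (-0.68 ± 0.036, adjusted p = 2.93e-05, limma). In siKDM4A it was slightly higher (0.13 ± 0.033, adjusted p = 0.0196), a call lost without Control replicate 1 or 3 or siKDM4A replicate 2 or 3 (0.11 to 0.14, adjusted p of 0.0509 to 0.0712, limma).

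COX7C and COX6C, small single-pass subunits, were lowest in siLEF1 and highest in siKDM4A. COX7C was at 58.3, 60.5 and 54.9 FPKM in Control, 41.4, 39.5 and 38.0 FPKM in siLEF1 and 68.0, 69.0 and 72.0 FPKM in siKDM4A (-0.55 ± 0.046 and 0.27 ± 0.042, adjusted p = 0.000205 and 0.00304, limma). COX6C was at 15.3, 17.5 and 17.0 FPKM in Control, 11.8, 11.9 and 10.97 FPKM in siLEF1 and 20.03, 21.2 and 21.8 FPKM in siKDM4A (-0.52 ± 0.060 and 0.34 ± 0.059, adjusted p = 0.000826 and 0.00496, limma). The 3 groups did not overlap for either gene. COX6A1, a subunit with tissue-specific forms, was at 2.53, 2.30 and 2.88 FPKM in Control, 3.47, 2.62 and 2.93 FPKM in siLEF1 and 3.94, 3.60 and 3.78 FPKM in siKDM4A, and rose in siKDM4A (0.54 ± 0.097, adjusted p = 0.0055, limma). These values stood on 53, 48 and 59 reads in Control and 87, 79 and 87 in siKDM4A. Another gene model covers 53.5% of the coding bases of COX6A1, so its level is uncertain. COX6B1, the most abundant complex IV member, was at 83.9 to 88.9 FPKM in Control, 85.1 to 89.7 FPKM in siLEF1 and 89.8 to 94.4 FPKM in siKDM4A. In siKDM4A its log2 fold change was 0.10 ± 0.032 (adjusted p = 0.0592, limma), and it reached 0.12 with adjusted p of 0.0457 and 0.0460 (limma) without Control replicate 2 or siKDM4A replicate 1. NDUFA4 was at 38.7, 41.6 and 39.4 FPKM in Control, 42.4, 42.6 and 42.2 FPKM in siLEF1 and 37.4, 37.8 and 39.9 FPKM in siKDM4A. Its siLEF1 value of 0.09 ± 0.032 (adjusted p = 0.0798) passed the test at 0.12 without Control replicate 2 (adjusted p = 0.0160, limma), and siKDM4A lay 0.15 below siLEF1 (adjusted p = 0.00924, or 0.0760 without the trend, limma). COX8A was at 23.8, 24.5 and 17.8 FPKM in Control, and its uncalled siKDM4A value of 0.08 turned to -0.07 without Control replicate 3. In siLEF1 0 of 11 members rose and 3 fell (27.3%), and in siKDM4A 4 rose (36.4%) and 0 fell. Over all tested genes 15.7% rose and 16.9% fell in siLEF1, and 14.7% and 18.3% in siKDM4A. Over genes averaging 10 FPKM or more these shares were 31.1% and 33.6%, and 37.2% and 28.2%.

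**Figure D2:**
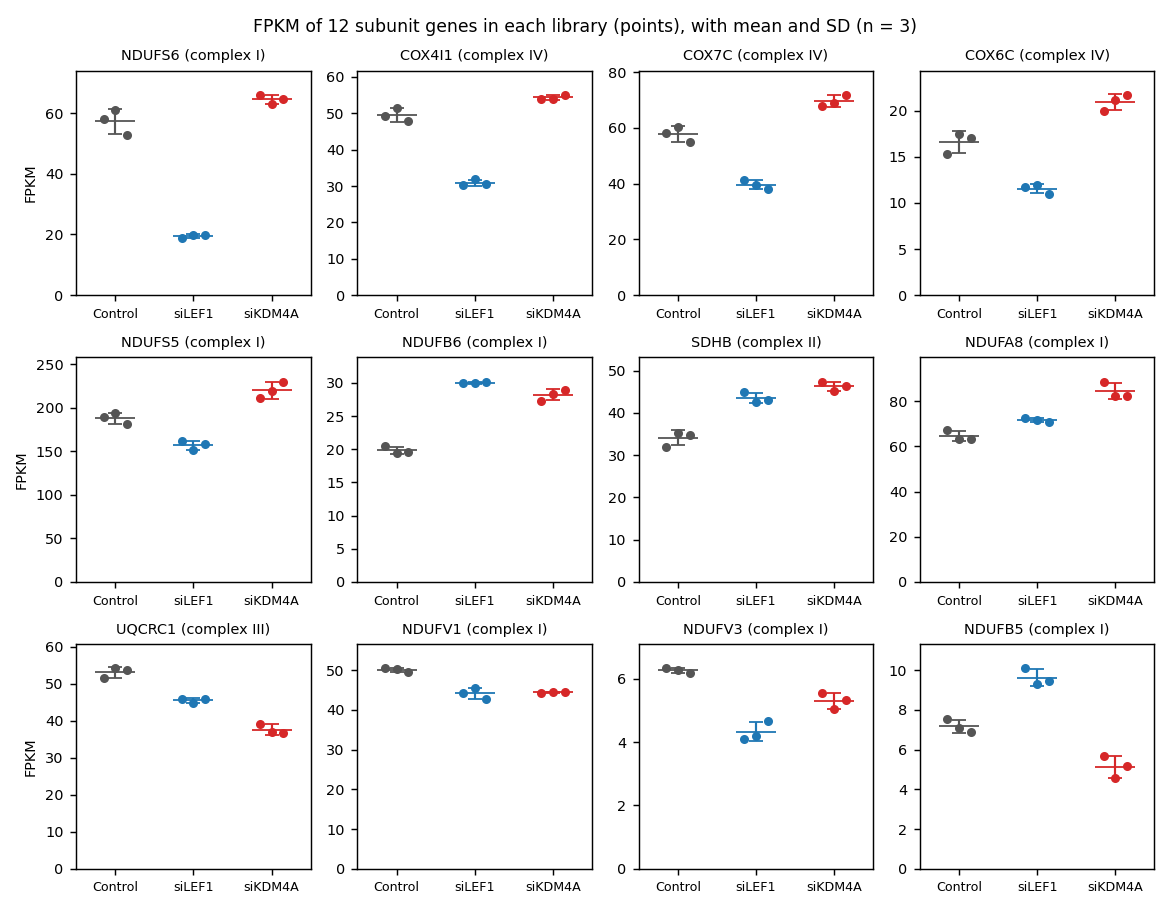
FPKM (y axis, from 0) of 12 subunit genes in each library, with Control in grey, siLEF1 in blue and siKDM4A in red. Points are libraries and bars are the mean and SD (n = 3). NDUFS6, COX4I1, COX7C, COX6C and NDUFS5 are lowest in siLEF1, NDUFB6, SDHB and NDUFA8 are above Control in both knockdowns, and UQCRC1, NDUFV1 and NDUFV3 are below Control in both.

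Set directly against each other, siKDM4A was higher than siLEF1 for 19 members (35.2%) and lower for 4 (7.41%). Of all tested genes 16.8% were called higher and 20.1% lower. Of the genes averaging 10 FPKM or more, 39.2% were called higher and 30.5% lower. With the fold threshold 5 members were higher and 1 lower, where the shares over all genes were 5.28% and 10%. The 5 were NDUFS6 (1.72), COX6C (0.86), COX4I1 (0.81), COX7C (0.81) and UQCRC2 (0.62 on the log2 scale), and the 1 was NDUFB5. The 3 other members that were lower in siKDM4A were UQCRC1, NDUFA4 and NDUFB6. NDUFB6 differed by -0.09 (adjusted p = 0.0480), a call lost without any one of the siLEF1 replicates or siKDM4A replicate 1 or 2 (-0.10 to -0.07, adjusted p of 0.0902 to 0.123, limma). NDUFV1 and NDUFS1, lower than Control in each knockdown, differed between the knockdowns by 0.01 and 0.00 (adjusted p = 0.872 and 0.996, limma). By complex, 9 of 32 were higher and 2 lower in complex I, 3 of 4 and 0 in complex II, 3 of 7 and 1 in complex III, and 4 of 11 and 1 in complex IV. The median difference over the 54 members was 0.11, where it was -0.06 over all genes tested and 0.05 over those averaging 10 FPKM or more.

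Complex I summed to 978 ± 17.1 FPKM in Control (mean ± SD, n = 3), 911 ± 8.51 in siLEF1 and 1059.9 ± 11.8 in siKDM4A. Without NDUFS6 the siLEF1 sum was 96.8% of Control, against 93.1% with it. Complex II summed to 71.7 ± 2.36 FPKM in Control, 75.5 ± 0.702 in siLEF1 and 85.7 ± 1.11 in siKDM4A. No test was made of the sums. Complex II was the complex in which the siLEF1 sum lay above Control, at 105% of its mean, and SDHB, its most abundant member, rose there while SDHA and SDHC fell. Complex III summed to 260.4 ± 5.08, 235 ± 3.37 and 270.4 ± 10.3 FPKM in Control, siLEF1 and siKDM4A. Complex IV summed to 447 ± 17.8, 409 ± 5.13 and 475 ± 5.25 FPKM in the same order. For complexes I, III and IV the 3 siLEF1 libraries lay below all Control libraries, and for complexes I, II and IV the 3 siKDM4A libraries lay above them. The 54 genes together held 0.677% of the summed FPKM in Control, 0.623% in siLEF1 and 0.715% in siKDM4A.

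**Figure D3:**
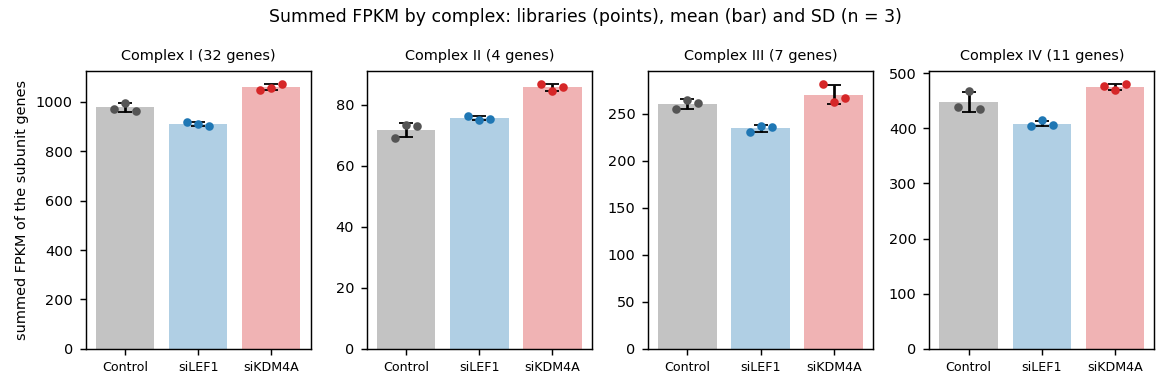
Summed FPKM (y axis, from 0) of the member genes of each complex, with libraries as points, the mean as a bar and the SD as an error bar (n = 3 a group). Complex I falls from 978 FPKM in Control to 911 in siLEF1 and reaches 1059.9 FPKM in siKDM4A.

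The levels of the members ranged widely, and part of that range followed how the gene models overlap. In Control 11 of the 54 genes were under 5 FPKM, among them subunits without which complex I does not assemble, such as NDUFS7 and NDUFV2. NDUFS7, a core iron-sulphur subunit, was at 0.375, 0.248 and 0.235 FPKM in Control on 44, 29 and 27 reads. NDUFB8, at 0.771, 0.419 and 0.721 FPKM in Control, stood on 24, 13 and 22 reads there and on 11, 12 and 3 in siKDM4A. Its siKDM4A value of -1.09 ± 0.43 did not pass the test (adjusted p = 0.102), though it did in a voom fit of the whole reads (-1.41, adjusted p = 0.0164 by limma). NDUFA13 was at 0.332, 0.238 and 0.315 FPKM in Control and 0.861, 0.441 and 0.434 FPKM in siLEF1, on 14, 10 and 13 against 37, 19 and 20 reads (0.73 ± 0.31, adjusted p = 0.129, limma).

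In GENCODE 29, 7 members had at least 50% of their coding bases inside exons of another gene model, and their median level in Control was 0.637 FPKM, against 25.05 FPKM for the other 47. For NDUFB8 the share was 85.2%, for NDUFV2 84.7%, for NDUFA7 78.3%, for NDUFA9 67.9%, for NDUFA13 55.2% and for COX6A1 53.5%. The other models lay on the same strand, such as AP005263.1 over NDUFV2 and AL133352.1 over NDUFB8. COX8A, at 55.1%, was the exception to the low levels, with a mean of 22.1 FPKM. How reads in shared exons were counted is not given in the sources used here, so the levels of these 7 genes are uncertain. The same limit holds for members just below the cut. These were SDHD (47.7%) and NDUFA11 (37.8%), mainly on the same strand, and NDUFS7 (48.5%) and NDUFB2 (45.2%), on the opposite strand. Without the 7 genes at or above the cut, 5 of 47 members rose and 14 fell in siLEF1. In siKDM4A 14 rose and 6 fell, a reading added after the values were seen. The 47 annotated copies of members, mostly pseudogenes, summed to 33.2 ± 3.22 FPKM in Control, against 1757 ± 39.6 FPKM for the 54 genes.

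**Figure D4:**
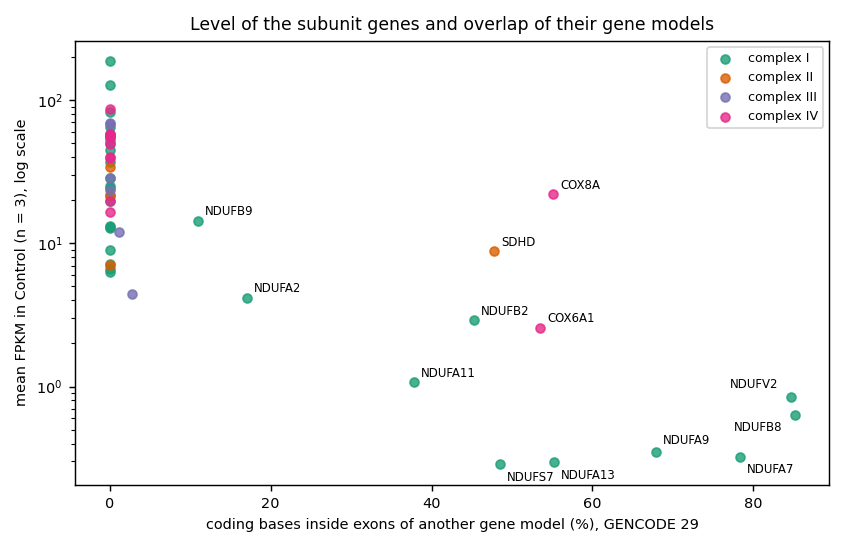
Mean FPKM in Control (y axis, log scale, n = 3) of the 54 subunit genes against the percentage of their coding bases that lie inside exons of another gene model (x axis), coloured by complex. NDUFV2 and NDUFB8, at over 80% overlap, lie below 1 FPKM, whereas the genes without overlap lie above 5 FPKM.

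Promoter sequence was available for 46 of the 54 members, in 51 windows of 300 bases from RefSeq (GRCh38.p14). Motifs were searched on both strands as exact letters. The NRF1 core CGCATGCG was in 7 of the 51 member windows (13.7%), against 2.02% of all 35116 windows. CCGGAAGT, the site of ETS factors such as GABP, was also in 7 (13.7%), against 4.14%. AAGATGGCG, the site of YY1, was in 8 (15.7%), against 1.75%. CTTTGAA or CTTTGAT, the site of LEF1 and other TCF factors, was in 2 windows of 1 gene, NDUFA5 (3.92%), against 6.86%. These 2 windows, chr7:123601562-123601861 and chr7:123601602-123601901, overlap and hold the same site. The other NDUFA5 window, chr7:123557769-123558068, did not hold these letters. NDUFA5 is an accessory subunit of complex I and was not called in either comparison (-0.11 in siLEF1 and 0.13 in siKDM4A). Of the 8 members with the YY1 letters, SDHB and NDUFS4 rose in both knockdowns, UQCRC1 fell in both, and NDUFA6, NDUFA7, NDUFA9, NDUFB8 and NDUFS7 were not called in either. The promoters of the 3 called members are shown so that the shared letters, in capitals, can be compared.
SDHB promoter, chr1:17053983-17054282, minus strand: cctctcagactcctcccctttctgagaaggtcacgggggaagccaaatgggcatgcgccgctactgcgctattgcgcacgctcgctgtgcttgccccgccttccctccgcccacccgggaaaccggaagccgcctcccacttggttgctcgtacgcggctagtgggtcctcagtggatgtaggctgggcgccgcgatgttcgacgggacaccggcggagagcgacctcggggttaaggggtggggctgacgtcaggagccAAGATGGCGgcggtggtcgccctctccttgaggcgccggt
NDUFS4 promoter, chr5:53560389-53560688, plus strand: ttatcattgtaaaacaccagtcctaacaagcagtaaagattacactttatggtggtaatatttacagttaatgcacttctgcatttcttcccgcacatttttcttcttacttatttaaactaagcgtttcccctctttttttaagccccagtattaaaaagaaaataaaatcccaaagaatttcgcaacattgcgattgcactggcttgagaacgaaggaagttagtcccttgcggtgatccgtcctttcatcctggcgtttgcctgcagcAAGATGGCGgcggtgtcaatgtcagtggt
UQCRC1 promoter, chr3:48609597-48609896, minus strand: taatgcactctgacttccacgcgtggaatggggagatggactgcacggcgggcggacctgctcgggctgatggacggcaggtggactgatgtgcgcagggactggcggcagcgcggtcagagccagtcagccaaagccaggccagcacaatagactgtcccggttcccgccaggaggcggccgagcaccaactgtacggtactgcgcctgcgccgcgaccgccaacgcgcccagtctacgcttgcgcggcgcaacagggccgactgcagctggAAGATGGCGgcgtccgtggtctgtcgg
In each of the 3 the motif lay in the 50 bases after the transcription start. A match in letters is not evidence that a factor was bound, and these windows say nothing of sites elsewhere.

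Other genes of the pathway were counted in the same fits, from lists drawn up by function. For these lists and those below, 15.7% of all tested genes rose and 16.9% fell in siLEF1, and 14.7% and 18.3% in siKDM4A. Of genes averaging 10 FPKM or more, 31.1% rose and 33.6% fell in siLEF1, and 37.2% and 28.2% in siKDM4A. Of the 13 subunits encoded by mitochondrial DNA, 1 rose and 1 fell in siLEF1, and 7 rose and 0 fell in siKDM4A (median 0.15). Their summed level was 12.2% of all FPKM in Control and 13.2% in siKDM4A. Of 18 ATP synthase genes, 5 rose and 3 fell in siLEF1, and 12 rose and 0 fell in siKDM4A (median 0.25), with USMG5 past the fold threshold at 0.60. Of 44 assembly factors tested, 7 rose and 8 fell in siLEF1 (15.9% and 18.2%), and 12 rose and 8 fell in siKDM4A (27.3% and 18.2%). SCO1, a copper chaperone of complex IV, fell in siLEF1 from 6.82, 6.17 and 6.28 FPKM to 4.33, 3.98 and 3.84 FPKM (-0.65, adjusted p = 0.000527, limma). TTC19, an assembly factor of complex III, fell there by 0.67 and SDHAF2, which attaches the flavin to SDHA, by 0.70. In siKDM4A NDUFAF2, an assembly factor of complex I, rose by 0.67, and SDHAF4, of complex II, fell by 0.69.

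Among subunits of complexes I, III and IV outside the 54, NDUFC2, a membrane-arm subunit of complex I, fell in siLEF1 from 3.39, 2.89 and 3.51 FPKM to 1.02, 0.663 and 1.22 FPKM (-1.69, adjusted p = 0.00115, limma). UQCR11, the smallest complex III subunit, fell in siLEF1 by 0.63 and rose in siKDM4A by 0.53. Of 12 genes for electron carriers, 4 rose and 3 fell in siLEF1, and 5 rose and 1 fell in siKDM4A. CYCS, which encodes cytochrome c, was at 54.8, 57.8 and 53.2 FPKM in Control, 81.1, 76.9 and 74.7 FPKM in siLEF1 and 88.0, 95.01 and 94.9 FPKM in siKDM4A, and rose in both (0.49 and 0.74). COQ8A, a kinase-like protein of ubiquinone synthesis, fell in both, by 0.80 and 0.70, and PDSS2, of the same pathway, rose in siLEF1 by 0.63.

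Of 14 regulators of respiratory genes tested, 2 rose and 5 fell in siLEF1 (14.3% and 35.7%), and 6 rose and 2 fell in siKDM4A (42.9% and 14.3%). TFAM, which packages and transcribes mitochondrial DNA, was at 21.9, 22.6 and 22.1 FPKM in Control, 14.98, 14.3 and 14.7 FPKM in siLEF1 and 23.6, 24.4 and 24.4 FPKM in siKDM4A. It fell in siLEF1 (-0.59, adjusted p = 2.64e-05, limma). In siKDM4A MYC rose from 34.5, 33.1 and 34.4 FPKM to 60.4, 57.8 and 56.2 FPKM (0.77, adjusted p = 1.98e-05, limma). The coactivator PPARGC1B rose there by 0.80, and ESRRA, a nuclear receptor that it activates, fell by 0.72. Of 14 genes for other mitochondrial proteins, 5 rose and 3 fell in siLEF1, and 13 rose and 0 fell in siKDM4A (median 0.40). HSPD1, the mitochondrial chaperonin, rose from 103, 105 and 102 FPKM to 195, 209 and 205 FPKM in siKDM4A (0.97, adjusted p = 7.13e-06, limma), and its partner HSPE1 rose by 0.76.

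The ribosome lists cover other large complexes that every cell uses. Of 78 genes of the mitochondrial ribosome, 11 rose and 23 fell in siLEF1 (14.1% and 29.5%), and 33 rose and 2 fell in siKDM4A (42.3% and 2.56%). Among genes of at least 1 FPKM, MRPS17, MRPL1 and MRPS24 fell furthest in siLEF1 (-0.89, -0.84 and -0.79), and MRPL4, MRPL24 and MRPL36 rose furthest in siKDM4A (0.68, 0.61 and 0.59). Of 80 genes of the cytosolic ribosome, 2 rose and 40 fell in siLEF1 (median -0.12), and 56 rose and 3 fell in siKDM4A (median 0.20). Above the same level, RPL36, RPS23 and RPS2 fell furthest in siLEF1 (-1.23, -1.01 and -0.67), and RPL26, RPS10 and RPL23A rose furthest in siKDM4A (0.71, 0.71 and 0.64). The respiratory subunits, with medians of -0.07 and 0.08, lay closer to 0 in both comparisons than the cytosolic ribosome did, a description of medians without a test.

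**Figure D5:**
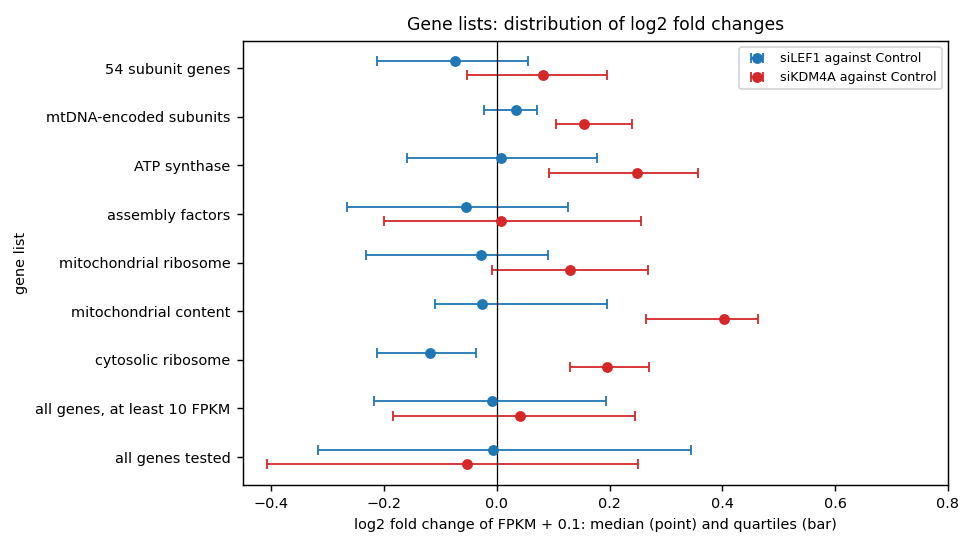
Median (point) and quartiles (bar) of the log2 fold change of FPKM + 0.1 (x axis) over the genes of each list (y axis) in siLEF1 (blue) and siKDM4A (red) against Control. The 54 subunit genes have medians of -0.07 and 0.08, the cytosolic ribosome of -0.12 and 0.20, and all genes tested of -0.01 and -0.05.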

How the data were processed

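RNA from 9 CAL-27 samples (Control, siLEF1 and siKDM4A, 3 each) was sequenced after poly(A) selection with a stranded kit. The deposited files hold 1 FPKM value per gene, made by the authors, and the submitters' processing notes name Trimmomatic, HISAT2, Cufflinks, HTSeq and hg38; versions and the annotation are not given in the sources used here. In 94.0% of genes above 0 in all libraries the gene length implied by the FPKM equalled the exon length in GENCODE 29. FPKM divides by all annotated exons of a gene, so levels of genes with long noncoding transcripts are understated. Library totals of 15263085 to 17126523 reads were recovered from the FPKM steps: 100% of 217477 values above 0 were whole reads within 0.02. In the shallowest library 3 reads on 1 kb equal 0.197 FPKM. Such values cover counting error only.

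Tests used limma 3.58.1 (R 4.3.3) on log2(FPKM + 0.1), with eBayes and a trend, on the 6 libraries compared, over genes averaging 0.1 FPKM or more there, with Benjamini-Hochberg adjustment over all of them. The pseudocount understates changes of low genes. The scripts were tested on simulated data. Errors beside fold changes are SE, intervals are 95%, and n = 3. Named members were those past both thresholds in a comparison with Control, the highest and lowest of each complex in each comparison, and the most and least abundant of each complex; from every other list at most 3 genes past both thresholds at 1 FPKM or more. Members and lists were chosen with earlier results of these data known. Replicate numbers were not used as pairs: deviations from the group means of same-numbered libraries correlated at -0.040 to 0.043 over 12586 genes. Alternatives changed the pseudocount, the filter, the trend, the libraries fitted, their scaling, the block and the test (voom on recovered reads), and left out each library. The counts over subunits outside the 54 genes are not reported here.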

Additional observations from a re-analysis of the deposited data

How the results depend on the processing

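Counts and medians in siLEF1 against Control kept their direction and stayed within 1.5 times the main count under all alternatives run: 16 to 21 members were called, or 18 to 21 with any one library left out, where 3 to 4 passed the fold threshold and the median was -0.09 to -0.06. In siKDM4A against Control the count of called members was 14 without the trend in eBayes, against 22. The 8 lost were COX4I1, NDUFA12, NDUFS1, NDUFS3, NDUFS4, NDUFS6, SDHD and UQCRB, and in siLEF1 NDUFA8, NDUFB10, NDUFB11 and NDUFS1 were lost. The 1 member past the fold threshold was 0 with a pseudocount of 1 FPKM, with no filter, with a filter of 1 FPKM, with a fit of all 9 libraries and with the replicate block, and 2 with scaled libraries and with voom. With any one library left out it was 0 to 1, 17 to 22 members were called and the median was 0.06 to 0.10. Scaling the libraries moved the median from 0.08 to 0.13 and, between the knockdowns, from 0.11 to 0.15. Between the knockdowns the leave-one-out range was 0.088 to 0.15 for the median, 20 to 24 for the called members and 6 to 7 past the fold threshold. With NDUFA4 in complex I, the complex IV median between the knockdowns was 0.14 instead of 0.08. The cause of these shifts was not tested.

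Signs turned for values near 0 that were not called. SDHA in siKDM4A was 0.0095 with scaled libraries. Leaving out 1 library gave -0.0051 to 0.037 for COX6B1, -0.17 to 0.080 for NDUFS7, -0.048 to 0.0055 for SDHD and -0.048 to 0.084 for UQCRB in siLEF1, and -0.066 to 0.16 for COX8A in siKDM4A. Between the knockdowns it gave -0.14 to 0.0034 for NDUFA12, -0.37 to 0.055 for NDUFA13, -0.020 to 0.024 for NDUFS1 and -0.017 to 0.030 for NDUFV1.

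The replicate numbers share no stated origin and same-numbered libraries did not deviate together, so the block fit is given once. With the replicate block 21 members were called in siLEF1, 19 in siKDM4A and 23 between the knockdowns, and the medians were unchanged at -0.07, 0.08 and 0.11. In siKDM4A COX4I1, NDUFS6, NDUFV2 and NDUFA12 lost their calls under it and another member gained a lower call, which left 13 higher and 6 lower. Between the knockdowns NDUFB6 and UQCRB lost theirs and COX6A1 gained one. Calls gained by members neither named nor called against Control in the main fit are not listed, so these names do not make up the counts. Members on few reads, such as NDUFV2, NDUFS7 and NDUFB8, allow no firm statement at this depth.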
